A study of Mus musculus with 9 samples.

Results

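Aspirin alone was compared with no treatment in injured mouse leg muscle across all expressed genes. The comparison used 3 aspirin and 3 untreated control libraries, 6 of the 9 libraries in the series. A filter on low counts kept 18259 genes out of 55335 listed. Every mouse was wild type (labelled WT, strain written c57b6l) and had been put through a hindlimb model that the labels describe with both suspension and ischemia. The controls are labelled untreated and the aspirin samples as given aspirin. The remaining 3 libraries, from mice given aspirin with a peptide hydrogel, entered only the shared estimate of the spread and a side-by-side view near the end. RNA came from leg muscle, and the sources used here give no dose, route, time after injury, age or sex. Uninjured muscle was not analysed here. The labels number the samples of a group as repeats without saying that each came from a separate mouse, so the tests measure the spread between these samples.

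Aspirin acetylates the cyclooxygenases and so blocks the first committed step from arachidonic acid to the prostaglandins and thromboxane. In injured muscle, prostaglandins act on vessels, on the neutrophils and macrophages that clear dead fibres, and on the satellite cells that rebuild them. Neutrophils arrive early and draw in monocytes, which become macrophages that first take up debris and later help repair, while endothelial cells and fibroblasts restore vessels and matrix.

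Total counts per library ran from 32197791 to 48170537 in the 6 libraries. A gene with no count then lies below 0.0554 to 0.0872 CPM (counts scaled to library size after TMM), which is 3 counts per library and covers counting error only. The deposited unit per kilobase of gene, FPKM, carries no TMM scaling, unlike CPM, so its sums can order libraries otherwise. All 10 markers of skeletal muscle fibres were present in each library, the lowest at 61.6 FPKM. Their summed level was 18500 FPKM in Aspirin replicate 1 against 41600 to 70600 FPKM in the other 5 libraries. B cell and plasma cell markers summed to 18600, 35.6 and 58.8 FPKM in Aspirin replicates 1, 2 and 3, against 870, 194 and 74.0 FPKM in the controls. The 10 most abundant genes took 9.88% of the counts of Aspirin replicate 1 and 17.7% to 28.1% of those of the other 5. Aspirin replicate 1 therefore stood apart in content from the others, and the medians of gene groups are given without it where they are printed. In RNA from whole tissue, fewer cells of a type and less RNA per cell cannot be told apart. Each sample also carries a code, 9 for the controls, 7 for Aspirin replicates 1 and 2 and 10 for Aspirin replicate 3. No code is shared between the groups, so whatever it marks cannot be told apart from treatment.

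With edgeR's quasi-likelihood test 0 genes had an adjusted p under 0.05 (0.0%), and the smallest adjusted p was 0.528. At an unadjusted p under 0.05, 1183 genes (6.48% of those tested) differed, 564 of them higher (3.09%) and 619 lower (3.39%) with aspirin. DESeq2 called 101 genes at its adjusted p (0.553%), 33 higher (0.181%) and 68 lower (0.372%), and had 1601 at an unadjusted p under 0.05 (8.77%). limma-voom called 0 (0.0%), with 1314 at an unadjusted p under 0.05 (7.2%). In 2004 genes (11.0%) the 3 aspirin libraries lay entirely on one side of the 3 controls, above them in 1011 (5.54%) and below them in 993 (5.44%). Without Aspirin replicate 1, 366 genes were higher (1.95%) and 652 lower (3.48%) at an unadjusted p under 0.05. The fold changes that follow are log2 values, aspirin minus control, from edgeR with their standard errors (SE). Groups of genes are counted at an unadjusted edgeR p under 0.05, and no gene passed edgeR's adjustment. The shares of all genes to set beside them are 3.09% higher and 3.39% lower. Members kept are those past the filter on low counts. Library values are given in the order of replicates 1, 2 and 3. The words higher and lower describe these libraries.

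The 4 genes of smallest p, Usp49, Irx5, Apold1 and Cish, were all lower with aspirin. The 12 lower genes of smallest p lay at log2 fold changes from -3.07 to -1.15, and in all 12 every aspirin library was below every control library. The 12 higher genes of smallest p ran from 0.83 to 5.19, again with no overlap between the groups in any of them. Their edgeR adjusted p ran from 0.528 to 0.747, and DESeq2 called all 24. Both sets were picked by this contrast, so those counts describe the choice. Some lists below hold genes of these sets. Lists were chosen with earlier results of these data known, so their shares partly describe the choice too.

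**Figure D1:**
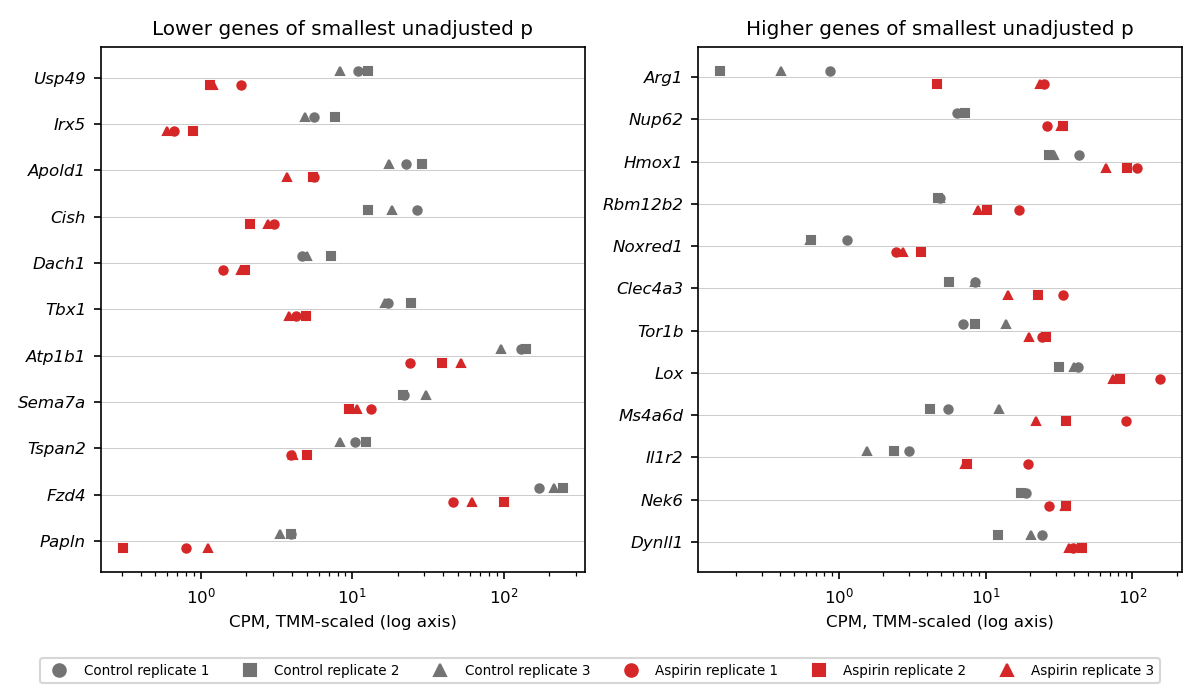
CPM on a log axis in each of the 3 control (grey) and 3 aspirin (red) libraries for 11 of the 12 lower (left) and all 12 higher (right) genes of smallest unadjusted p, with 1 symbol per library. In all 23 genes the 3 red symbols lie on one side of the 3 grey ones, and among the 23 Arg1 has the highest fold change, 5.19 on the log2 scale.

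Usp49 (chr17:47630690-47686738 on GRCm38), an enzyme that removes ubiquitin from histone H2B, had the smallest p. It stood at 10.9, 12.7 and 8.28 CPM in the controls and at 1.83, 1.15 and 1.20 CPM with aspirin. The log2 fold change was -2.93 ± 0.38 (SE), with an edgeR adjusted p of 0.528 and a DESeq2 adjusted p of 1.68e-09. The lowest control was 4.53 times the highest aspirin library. Gm20517 shares 4392 of the 8581 exonic bases of Usp49 on the same strand, so reads of the 2 annotated genes could be mixed. Among 14 kept genes of histone H2B deubiquitination and ubiquitination, 2 were lower at p under 0.05 (14.3%) and 0 higher. The first was Usp49 itself, already picked by this contrast, so the share partly describes that choice. The second was Usp44, another H2B deubiquitinase, at 0.683, 1.32 and 1.31 CPM in the controls and 0.477, 0.538 and 0.571 CPM with aspirin. Usp22, the deubiquitinase of the SAGA complex, stood at 34.4, 34.8 and 29.3 CPM in the controls and 32.4, 30.3 and 29.4 CPM with aspirin, which did not separate the groups.

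Several transcription factors that pattern the limb and its muscle were also lower. Irx5 (chr8:92357625-92376286), an Iroquois homeobox gene, measured 5.58, 7.74 and 4.85 CPM in the controls and 0.667, 0.889 and 0.600 CPM with aspirin, a log2 fold change of -3.07 ± 0.46 (DESeq2 adjusted p = 6.85e-08). Its neighbour in the family, Irx3, read 4.12, 9.06 and 6.07 CPM in the controls and 1.94, 3.14 and 2.31 CPM with aspirin (-1.38 ± 0.39). The groups were separate for both genes. Tbx1, a T-box factor needed in early head muscle, stood at 17.2, 24.5 and 16.4 CPM without and 4.23, 4.94 and 3.80 CPM with the drug (-2.16 ± 0.41). Dach1, a corepressor of the retinal determination network, went from 4.67, 7.23 and 5.03 CPM in the controls to 1.39, 1.97 and 1.83 CPM (-1.71 ± 0.31). Tbx1 and Dach1 had no overlap between the groups either. Apart from Dach1 these genes belong to a list of 35 limb patterning and homeobox genes. Of its 33 kept members 22 lay below 0 and 4 were lower at p under 0.05 (12.1%, against 3.39% of all genes), with 0 higher. They included Irx5, Irx3 and Tbx1. Irx5 and Tbx1 were already picked by this contrast as genes of smallest p, so the share partly describes that choice. The median of the list was -0.20, against 0.05 over all genes. Without Aspirin replicate 1 the median was 0.11, with 2 members higher and 4 lower at p under 0.05.

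Cish (chr9:107296026-107302784), an inhibitor of cytokine signalling that STAT5 induces, was among the lower genes as well. It read 26.9, 12.8 and 18.4 CPM in the controls and 3.03, 2.11 and 2.77 CPM with aspirin, with all 3 aspirin libraries far below the controls (-2.88 ± 0.46, DESeq2 adjusted p = 7.40e-06). An antisense gene, Gm17041, covers 479 exonic bases of Cish, and the sources used here do not say whether counting used strand. The 19 kept genes of STAT5 and growth hormone signalling had 1 lower (5.26%) and 0 higher member at p under 0.05, Cish itself. Igfals, which carries IGF in blood, stood at 3.53, 2.70 and 6.39 CPM in the controls and 0.515, 1.61 and 2.34 CPM with aspirin, without overlap but at an unadjusted p over 0.05 (-1.50 ± 0.78). Socs2, a relative of Cish and also a STAT5 target, gave 12.4, 9.37 and 15 CPM in the controls and 13, 6.72 and 5.20 CPM with aspirin, with overlap. The receptor Ghr and the growth factor Igf1 had fold changes of -0.84 ± 0.46 and -0.05 ± 0.28.

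The remaining lower genes of smallest p included receptors and membrane proteins. Apold1 (chr6:134981718-134986836), an early response gene of endothelium, measured 22.6, 29.0 and 17.6 CPM in the controls and 5.62, 5.50 and 3.68 CPM with aspirin (-2.22 ± 0.35). Fzd4, a Wnt and Norrin receptor of vessels, measured 170, 245 and 214 CPM in the controls and 46.5, 100 and 62.0 CPM with aspirin (-1.59 ± 0.32). For Atp1b1, a beta subunit of the sodium pump, the values were 131, 141 and 95.5 CPM in the controls and 24.2, 39.0 and 52.5 CPM with aspirin (-1.67 ± 0.32), and it shares 575 exonic bases with Nme7 on the other strand. Apold1, Fzd4 and Atp1b1 each had every aspirin library below every control. Sema7a, a membrane-anchored semaphorin, gave 21.9, 21.5 and 30.7 CPM in the controls and 13.2, 9.55 and 10.7 CPM with aspirin (-1.15 ± 0.23). The tetraspanin Tspan2 gave 10.5, 12.4 and 8.25 CPM in the controls and 3.91, 5.06 and 4.08 CPM with aspirin (-1.26 ± 0.25), and the matrix protein Papln 3.95, 3.93 and 3.31 CPM in the controls and 0.801, 0.304 and 1.11 CPM with aspirin (-2.33 ± 0.47). Sema7a, Tspan2 and Papln also had no overlap between the groups.

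The sequence just before the RefSeq start is shown for Usp49 and Dach1, the lower genes of smallest p among those with an entry whose window lies outside annotated exons. The windows for Apold1 and Cish lie within annotated GENCODE exons, so only 30 bases around a match in Apold1 are shown. RefSeq entries on GRCm38.p6 existed for 25 of the 37 genes considered. Capitals mark matches, on either strand, to the motifs searched: STAT (TTCNNNGAA), AP-1 (TGANTCA), the antioxidant response core (TGACNNNGC), the E-box CACGTG and C/EBP (TTNNGNAA).
Usp49, chr17:47630440-47630689, + strand: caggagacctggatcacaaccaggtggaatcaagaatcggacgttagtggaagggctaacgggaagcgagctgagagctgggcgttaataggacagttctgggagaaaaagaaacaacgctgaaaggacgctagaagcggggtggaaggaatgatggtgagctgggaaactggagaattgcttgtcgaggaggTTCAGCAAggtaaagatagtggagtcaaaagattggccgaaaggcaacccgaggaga
Dach1, chr14:98169766-98170015, - strand: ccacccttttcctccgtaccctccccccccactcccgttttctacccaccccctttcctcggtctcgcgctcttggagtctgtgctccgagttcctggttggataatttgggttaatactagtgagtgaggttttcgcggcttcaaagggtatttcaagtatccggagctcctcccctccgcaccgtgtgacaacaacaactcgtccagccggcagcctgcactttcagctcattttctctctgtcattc
Apold1, chr6:134981908-134981937, + strand: aaacagcagcTTCTCAGAAtgagacaaggc
The capitals in Usp49 are a C/EBP match 57 bases before the start, and those in Apold1 a STAT match 83 bases before it. Apold1 had C/EBP matches at 240, 178 and 177 bases before the start too, the last pair overlapping each other. Dach1 and Cish had no match to these letters in their windows. Over 32851 RefSeq windows of the same length, 7.02% held the STAT letters, 6.75% the AP-1, 10.2% the antioxidant, 6.02% the E-box and 36.8% the C/EBP letters. A match is a description of the letters and not a binding site.

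Beyond the smallest p values, the largest gaps between nearest libraries among the lower genes averaging at least 1 CPM belonged to Mybphl, Irx5, Usp49, Cish, Gbp11 and Cyp4f39. Mybphl, a myosin-binding protein related to that of the heart, read 3.56, 2.90 and 1.89 CPM in the controls and 0.229, 0.0468 and 0.314 CPM with aspirin (-3.81 ± 0.80), and Aspirin replicate 2 was below 3 counts. Gbp11, an interferon-inducible guanylate-binding protein, gave 4.73, 3.53 and 3.37 CPM in the controls and 0.877, 0.702 and 0.143 CPM with aspirin (-2.74 ± 0.79). Gbp11 belongs to a family of similar copies whose reads can be shared. Cyp4f39, a cytochrome that hydroxylates fatty acids, stood at 2.12, 1.67 and 2.30 CPM in the controls and 0.248, 0.491 and 0.485 CPM with aspirin (-2.31 ± 0.49). In each of the 3 the aspirin libraries lay apart from the controls.

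Of the 12 higher genes of smallest p, Arg1 had the largest fold change. Arg1 (chr10:24915221-24927484) is the arginase of repair-type macrophages and of liver, which splits arginine to ornithine and urea. It stood at 0.868, 0.156 and 0.407 CPM in the controls and at 24.9, 4.70 and 23.6 CPM with aspirin, so that even Aspirin replicate 2, the lowest of the 3, was 5.42 times the highest control. The log2 fold change was 5.19 ± 0.91 (95% interval 3.13 to 7.25, edgeR adjusted p = 0.747, DESeq2 adjusted p = 4.17e-07), and it was 4.85 without Aspirin replicate 1. The other arginase, Arg2, gave 1.02, 0 and 0.378 CPM in the controls and 4.88, 0.187 and 5.03 CPM with aspirin, high in Aspirin replicates 1 and 3 only and with no count in Control replicate 2 (2.84 ± 1.36, at an unadjusted p over 0.05). Nitric oxide synthases use the same substrate, and the endothelial Nos3 was lower at 15.2, 22.4 and 14 CPM in the controls and 7.49, 9.17 and 10.6 CPM with aspirin (-0.92 ± 0.30). The neuronal form of muscle fibres, Nos1, was lower at 19.1, 16.3 and 13.5 CPM in the controls and 2.19, 12.7 and 4.97 CPM with aspirin (-1.31 ± 0.54), while the inducible Nos2 overlapped at 6.0, 4.15 and 4.48 CPM in the controls and 4.12, 1.38 and 7.88 CPM with aspirin. Of 20 kept genes of arginine and polyamine metabolism, 1 was higher (Arg1) and 2 were lower (Nos3 and Nos1) at p under 0.05. Without Aspirin replicate 2 the fold change of Nos1 was -2.20.

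Hmox1 (chr8:75093621-75100589), the inducible haem oxygenase that breaks down haem, read 43.6, 26.9 and 29.1 CPM in the controls and 107, 92.5 and 66.3 CPM with aspirin (1.42 ± 0.29, DESeq2 adjusted p = 0.00585). The lowest aspirin library was 1.52 times the highest control. In the list of haem breakdown and iron genes, 1 of 24 kept members was higher (4.17%) and 3 were lower (12.5%) at p under 0.05. The 3 lower ones were Aco1, the iron-sensing cytosolic aconitase, at -0.72 ± 0.28, Hfe, a regulator of iron uptake, at -0.65 ± 0.26, and Steap4, a metalloreductase, at -0.56 ± 0.24. Their aspirin libraries were all below their controls. Among 25 kept antioxidant genes under NRF2, to which Hmox1 is usually assigned, 1 was higher (Nfe2l2, encoding NRF2, 0.61 ± 0.26) and 1 lower (Cat, catalase, -0.74 ± 0.27).

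The other higher genes of smallest p covered the nuclear pore, myeloid receptors, matrix and cytoskeleton. Nup62, a nucleoporin of the central channel, gave 6.41, 7.21 and 6.95 CPM in the controls and 26.0, 33.6 and 32.4 CPM with aspirin (2.16 ± 0.43). Lox, which crosslinks collagen and elastin, read 42.6, 31.7 and 39.9 CPM in the controls and 154, 81.9 and 73.5 CPM with aspirin (1.44 ± 0.32). The myeloid membrane protein Ms4a6d stood at 5.58, 4.17 and 12.4 CPM in the controls and 89.8, 35.2 and 22.0 CPM with aspirin (2.73 ± 0.62), and the groups did not overlap in any of the 3. Clec4a3, a C-type lectin receptor of myeloid cells, had 8.49, 5.67 and 8.49 CPM in the controls and 33.8, 22.9 and 14.3 CPM with aspirin (1.65 ± 0.36). Il1r2, the decoy receptor that binds interleukin-1 without signalling, had 3.01, 2.37 and 1.57 CPM in the controls and 19.4, 7.42 and 7.28 CPM with aspirin (2.29 ± 0.53). Within the aspirin group Ms4a6d, Clec4a3 and Il1r2 were highest in replicate 1. Tor1b, an endoplasmic reticulum ATPase of the torsin family, had a fold change of 1.26 ± 0.28, and Dynll1, a dynein light chain, 1.11 ± 0.26. The mitotic kinase Nek6 had 0.83 ± 0.19 and the little-studied Noxred1 1.85 ± 0.39. Rbm12b2 had 1.30 ± 0.27, but it has a close copy, Rbm12b1, with which reads can be shared.

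Leaving out Aspirin replicate 1 brought other genes forward. Eif5, a translation initiation factor, measured 53.4, 57.5 and 57.9 CPM in the controls and 68.5, 138 and 137 CPM with aspirin, with replicates 2 and 3 at about the same level (1.28 without replicate 1). Napb, a vesicle fusion factor, read 15.5, 20.8 and 17.9 CPM in the controls and 9.89, 40.6 and 33.7 CPM with aspirin (1.03), and Vsir, the immune checkpoint VISTA, 19.2, 12.6 and 25.0 CPM in the controls and 22.2, 70.3 and 42.5 CPM with aspirin (1.57, but 0.77 without replicate 2 and with replicate 1 kept). In Napb replicate 1 was below every control and the other 2 aspirin libraries above. Acss1, the mitochondrial acetyl-CoA synthetase, stood at 25.1, 30.8 and 18.5 CPM in the controls and 31.6, 8.0 and 9.76 CPM with aspirin, low in replicates 2 and 3 only (-1.49). With all 6 libraries the fold changes of Napb and Acss1 were 0.63 ± 0.44 and -0.59 ± 0.48, both at an unadjusted p over 0.05.

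The drug's own target and its pathway were read next. Ptgs1, the constitutive cyclooxygenase, stood at 8.81, 6.18 and 4.27 CPM in the controls and 4.48, 3.72 and 4.37 CPM with aspirin. The ranges overlapped, with a log2 fold change of -0.62 ± 0.32 (95% interval -1.34 to 0.11). Ptgs2, the inducible cyclooxygenase, was at 0.258, 0.179 and 0.843 CPM in the controls and 2.23, 1.29 and 4.31 CPM with aspirin, so every aspirin library was above every control (2.62 ± 0.92, 95% interval 0.53 to 4.72). Per kilobase, Ptgs1 was above Ptgs2 in all 6 libraries, where Ptgs1 read 2.52, 1.34 and 0.884 FPKM in the controls and 1.66, 0.932 and 0.886 FPKM with aspirin, and Ptgs2 0.0627, 0.0296 and 0.145 and 0.705, 0.272 and 0.748 FPKM. Of the 18 kept genes of prostanoid synthesis and handling, 2 were higher (11.1%) and 1 lower (5.56%) at p under 0.05. The median was 0.03, or 0.20 without Aspirin replicate 1. The second higher one was Hpgds, the prostaglandin D synthase of mast cells and macrophages, at 8.40, 5.13 and 6.48 CPM in the controls and 14.7, 22.7 and 6.37 CPM with aspirin, with Aspirin replicate 3 among the controls (1.13 ± 0.48, and 0.65 without replicate 2). The lower one was Cbr1, a carbonyl reductase that inactivates prostaglandin E, at 18.0, 21.2 and 25.1 CPM in the controls and 6.06, 12.4 and 10.1 CPM with aspirin with no overlap (-1.17 ± 0.33). Neither Ptges, the inducible prostaglandin E synthase, nor Pla2g4a, the phospholipase that frees arachidonic acid, separated the groups, at -0.44 ± 0.37 and 1.21 ± 0.59.

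Of the prostanoid receptors 7 of 9 passed the filter, and 1 was lower (14.3%) and 0 higher at p under 0.05. The lower one was Ptger1, a receptor for prostaglandin E, at 3.53, 2.63 and 1.16 CPM in the controls and 0.763, 0.117 and 0.0571 CPM with aspirin (-2.93 ± 0.90). All aspirin libraries were below the controls, Aspirin replicate 3 under 3 counts, and without replicate 1 the fold change was -4.75. Since strand use in counting is not known, the counts of Ptger1 are uncertain. The other 6 receptors had positive fold changes with all 6 libraries, from 0.22 ± 0.81 for Tbxa2r, the thromboxane receptor, to 0.97 ± 0.57 for Ptgfr, the prostaglandin F receptor. Their intervals all included 0. Ptgir, the prostacyclin receptor, read 3.53, 1.21 and 1.95 CPM in the controls and 4.0, 2.48 and 4.88 CPM with aspirin, and Ptger4 6.35, 4.98 and 6.83 CPM in the controls and 12.6, 8.68 and 5.85 CPM with aspirin, each with overlap.

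The lipoxygenase branch makes leukotrienes from the same arachidonic acid. Here 4 of 10 kept genes were higher (40.0%) and 1 lower at p under 0.05, and without Aspirin replicate 1 2 were higher. Alox5, which starts leukotriene synthesis, gave 1.70, 1.14 and 0.581 CPM in the controls and 2.78, 2.67 and 2.20 CPM with aspirin (1.16 ± 0.44). Its partner Alox5ap gave 17.6, 7.94 and 15.7 CPM in the controls and 39.9, 28.0 and 15.6 CPM with aspirin, with replicate 3 at control level (1.02 ± 0.44, and 0.66 without replicate 1). Alox5 separated the groups and Alox5ap did not. The cysteinyl leukotriene receptor Cysltr1 read 2.27, 0.848 and 1.57 CPM in the controls and 7.09, 3.11 and 3.94 CPM with aspirin (1.59 ± 0.47). Fpr2, a receptor for formyl peptides, serum amyloid A and the aspirin-linked lipoxins, read 1.14, 0.245 and 0.494 CPM in the controls and 10.4, 2.55 and 5.54 CPM with aspirin (3.28 ± 1.11). Cysltr1 and Fpr2 separated the groups. So did Alox12, the platelet-type lipoxygenase, in the other direction, at 5.46, 2.39 and 4.27 CPM in the controls and 1.64, 1.12 and 2.17 CPM with aspirin (-1.30 ± 0.42).

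**Figure D2:**
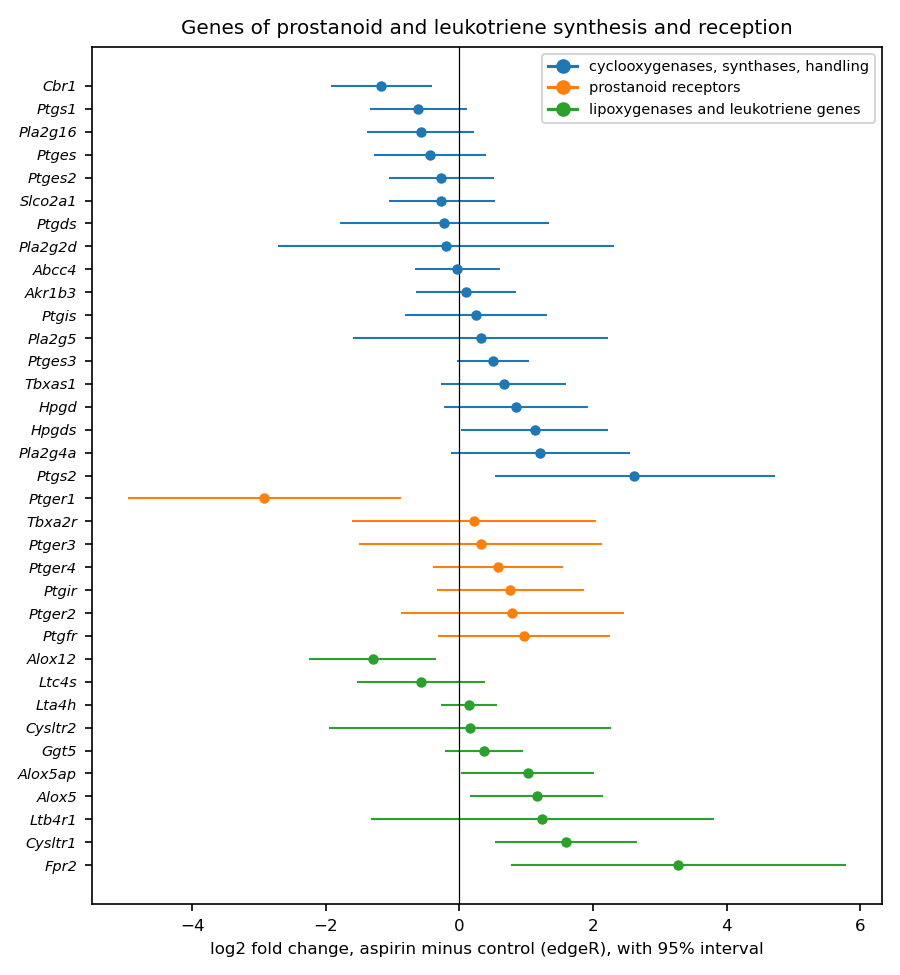
Log2 fold change, aspirin minus control, for every kept gene of prostanoid synthesis and handling (blue), prostanoid receptors (orange) and the lipoxygenase branch (green), with points for the edgeR estimate and bars for its 95% interval. Most intervals span 0, Ptgs2 and Fpr2 lie to the right of it and Ptger1, Alox12 and Cbr1 to the left.

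Genes that draw in neutrophils were high in 2 of the 3 aspirin libraries. Cxcl5, a neutrophil chemokine, stood at 0.443, 0.112 and 0.145 CPM in the controls and 17.3, 0.187 and 25.1 CPM with aspirin (5.88 ± 1.40, DESeq2 adjusted p = 0.000204). Il1b, the inflammatory cytokine interleukin-1 beta, was at 2.42, 0.134 and 2.41 CPM in the controls and 27.9, 2.29 and 36.2 CPM with aspirin (3.74 ± 1.18), and the acute-phase protein Saa3 at 2.46, 0.536 and 6.65 CPM in the controls and 868, 2.95 and 301 CPM with aspirin (6.93 ± 1.86). In all 3 genes Aspirin replicates 1 and 3 were above every control and replicate 2 was within the control range. The chemokine Cxcl2 showed the same split at 0.572, 0.112 and 0.145 CPM in the controls and 6.60, 0.328 and 6.97 CPM with aspirin (4.03 ± 1.19). Clec4e, the macrophage receptor Mincle for dead-cell ligands, gave 0.702, 0.379 and 1.02 CPM in the controls and 12.8, 0.866 and 9.42 CPM with aspirin (3.46 ± 0.87), and Slc13a3, a dicarboxylate carrier, 2.09, 0.759 and 3.40 CPM in the controls and 22.2, 2.29 and 22.4 CPM with aspirin (2.91 ± 0.83). These 6 are all of the 33 higher DESeq2 calls in which replicates 1 and 3 lay above the controls and replicate 2 did not. Saa3 and Slc13a3 were chosen after their values were seen. Without Aspirin replicate 1 the 6 fold changes ran from 2.56 (Slc13a3) to 5.68 (Cxcl5). Cxcl1 split less, at 0.369, 0.201 and 1.02 CPM in the controls and 7.49, 1.08 and 4.43 CPM with aspirin (3.04 ± 0.96), with replicate 2 just above the controls. Of 8 listed neutrophil-attracting chemokines and receptors 5 passed the filter, and 3 were higher at p under 0.05 (60.0%).

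Neutrophil markers were highest in Aspirin replicate 1. Of 21 kept markers 3 were higher at p under 0.05 (14.3%) and 0 lower, with a median of 1.59 that was 0.27 without Aspirin replicate 1. The summed marker level was 190, 27.4 and 112 FPKM in the controls and 878, 28.2 and 166 FPKM with aspirin. Csf3r, the receptor for the granulocyte growth factor, read 8.60, 2.95 and 8.89 CPM in the controls and 30.6, 9.76 and 37.5 CPM with aspirin, separate but with replicate 2 close to the controls (1.93 ± 0.57). S100a8, a calcium-binding protein abundant in neutrophils, read 14.6, 1.58 and 11.5 CPM in the controls and 76.3, 4.49 and 18.1 CPM with aspirin (1.84 ± 1.06). Csf3r separated the groups, and S100a8 overlapped through Aspirin replicate 2, at an unadjusted p over 0.05. Hdc, which makes histamine, gave 2.84, 2.28 and 3.31 CPM in the controls and 9.95, 3.07 and 9.11 CPM with aspirin (1.39 ± 0.44). For Hdc the groups overlapped through Aspirin replicate 2. Fpr1, the formyl peptide receptor of neutrophils, separated the groups at 0.757, 0.0893 and 0.552 CPM in the controls and 5.81, 1.92 and 6.77 CPM with aspirin (3.36 ± 0.80). How far the number of neutrophils in each muscle bears on Cxcl5, Il1b and Saa3 was not tested.

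All 28 kept monocyte and macrophage markers had positive fold changes, against 54.0% of all genes, 9 of them at p under 0.05 (32.1%, against 3.09%). The median was 1.14, and 0.74 without Aspirin replicate 1, when 4 markers had p under 0.05. Their summed level was 1060, 370 and 1520 FPKM in the controls and 4350, 2420 and 854 FPKM with aspirin, so that Aspirin replicate 3 lay below 2 of the controls. Relative to the control mean, the median marker stood at 0.08, -0.78 and 0.74 in the controls and 1.69, 1.44 and 0.34 with aspirin on the log2 scale, again with replicate 3 inside the control range. Msr1, a scavenger receptor, read 6.98, 4.37 and 9.42 CPM in the controls and 45.3, 27.9 and 14.8 CPM with aspirin (2.08 ± 0.53, DESeq2 adjusted p = 0.0295). Itgam, the integrin CD11b of myeloid cells, gave 23.8, 14.5 and 22.9 CPM in the controls and 55.1, 35.7 and 51.0 CPM with aspirin (1.21 ± 0.39), and the fungal lectin receptor Clec4n 9.95, 4.49 and 10.5 CPM in the controls and 40.4, 15.7 and 19.9 CPM with aspirin (1.60 ± 0.46). Msr1, Itgam and Clec4n separated the groups in every library. Gm49368 shares 3450 of the 5024 exonic bases of Itgam on the same strand, so their reads could be mixed. Adgre1, a classical surface marker of mouse macrophages, was at 42.7, 21.8 and 38.1 CPM in the controls and 103, 115 and 39.0 CPM with aspirin, high in replicates 1 and 2 and at control level in replicate 3 (1.33 ± 0.49).

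Resident macrophage markers had 5 of 18 members higher at p under 0.05 (27.8%) and 0 lower. Their median was 0.82 (0.62 without Aspirin replicate 1, with 3 higher). F13a1, coagulation factor XIII of macrophages, read 43.1, 58.8 and 40.6 CPM in the controls and 103, 127 and 103 CPM with aspirin, with all 3 aspirin libraries above the controls (1.22 ± 0.35). The mannose receptor Mrc1 read 63.6, 68.8 and 45.2 CPM in the controls and 264, 155 and 58.8 CPM with aspirin (1.43 ± 0.48), and the scavenger receptor Stab1 58.4, 74.5 and 46.6 CPM in the controls and 84.9, 120 and 89.4 CPM with aspirin (0.71 ± 0.25). Mrc1 overlapped through replicate 3 while F13a1 and Stab1 did not. The platelet factor Pf4, which resident macrophages also express, gave 16.5, 12.5 and 14.4 CPM in the controls and 53.7, 30.1 and 17.6 CPM with aspirin (1.22 ± 0.39). Without Aspirin replicate 1 the fold changes of Mrc1 and Pf4 were 0.84 and 0.71.

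CC chemokines made by macrophages followed replicates 1 and 2. Ccl6 read 71.8, 38.6 and 49.7 CPM in the controls and 431, 244 and 50.0 CPM with aspirin (2.18 ± 0.68), and Ccl9 57.7, 30.0 and 49.3 CPM in the controls and 385, 188 and 39.2 CPM with aspirin (2.16 ± 0.80). Ccl8 read 19.5, 12 and 22.3 CPM in the controls and 135, 47.7 and 21.0 CPM with aspirin (1.92 ± 0.67). For Ccl6, Ccl8 and Ccl9, Aspirin replicate 3 lay within the control range, and the fold changes without replicate 1 were 1.45, 0.93 and 1.31. The monocyte attractants Ccl7 and Ccl2 were above the controls in all 3 aspirin libraries, at 16.8, 5.71 and 15.1 CPM against 2.70, 1.65 and 4.68 CPM for Ccl7 and 6.14, 2.55 and 7.94 CPM against 1.86, 0.870 and 1.92 CPM for Ccl2. Of 27 kept CC chemokine and receptor genes 7 were higher (25.9%) and 1 lower (3.7%) at p under 0.05. The list median was 0.66 with all libraries and -0.04 without Aspirin replicate 1, when 1 was higher and 4 were lower.

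**Figure D3:**
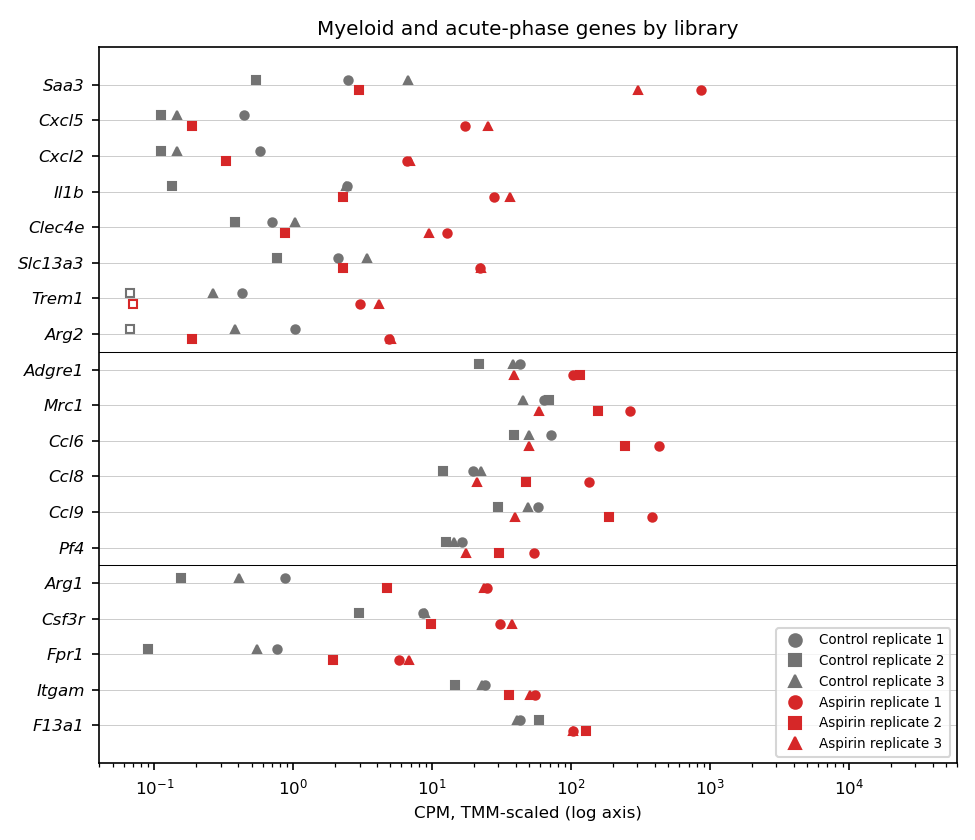
CPM on a log axis in the 3 control (grey) and 3 aspirin (red) libraries, open symbols standing for values under 3 counts drawn at that floor. The genes are grouped by library pattern after their values were seen: the top block is high in Aspirin replicates 1 and 3, the middle block highest in replicates 1 and 2, and the bottom block above the controls in all 3.

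All 19 interleukin-1 and inflammasome genes had positive fold changes, against 54.0% of all genes. Of these, 5 had p under 0.05 (26.3%), but the median of 0.80 became 0.22 without Aspirin replicate 1. Nlrp3, the inflammasome sensor, read 1.03, 0.312 and 0.785 CPM in the controls and 2.86, 2.01 and 3.17 CPM with aspirin (1.91 ± 0.57). Irak3, a brake on interleukin-1 and Toll-like signalling, was at 8.23, 8.21 and 8.31 CPM in the controls, nearly the same in each, and at 15.7, 11.7 and 15.8 CPM with aspirin (0.80 ± 0.23). Among 18 Toll-like receptor genes 4 were higher (22.2%) and 0 lower at p under 0.05, and 2 were higher without that library. Tlr2, which senses bacterial lipoproteins, gave 7.99, 3.3 and 9.42 CPM in the controls and 18.7, 16.2 and 16.2 CPM with aspirin (1.30 ± 0.47), and the adaptor Ticam2 2.60, 2.01 and 1.77 CPM in the controls and 7.55, 7.04 and 4.25 CPM with aspirin (1.56 ± 0.44). Nlrp3, Irak3, Tlr2 and Ticam2 each separated the groups. Tnf and Il6 did not, at 0.609, 0.268 and 0.320 CPM in the controls and 4.04, 0.328 and 2.57 CPM with aspirin for Tnf and 0.0923, 0.245 and 0.291 CPM in the controls and 3.60, 0.0936 and 0.942 CPM with aspirin for Il6. Of the interferon response list, 0 were higher and 0 lower of 30 kept genes at p under 0.05.

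Complement genes went both ways. Cfp, properdin, which stabilises the alternative pathway, read 40.5, 25.9 and 22.8 CPM in the controls and 128, 72.9 and 60.2 CPM with aspirin (1.55 ± 0.37, DESeq2 adjusted p = 0.0311). Cd59a, which blocks the terminal pore on host cells, read 23.4, 15.1 and 30.9 CPM in the controls and 4.65, 7.61 and 9.65 CPM with aspirin (-1.67 ± 0.38, DESeq2 adjusted p = 0.0160). Both separated the groups, in opposite directions. C5ar1, the receptor for the attractant C5a, was lower at 13.7, 8.84 and 17.6 CPM in the controls and 5.66, 6.67 and 2.83 CPM with aspirin (-1.40 ± 0.42). Cfd, the adipocyte product adipsin, was lower at 848, 1150 and 874 CPM in the controls and 172, 377 and 89.5 CPM with aspirin (-2.17 ± 0.68). Of 23 kept genes 2 were higher and 3 lower at p under 0.05, and the median was 0.27, or 0.20 without Aspirin replicate 1.

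Of 37 kept endothelial markers 32 had negative and 5 positive fold changes. At p under 0.05, 19 were lower (51.4%, against 3.39% of all genes) and 1 was higher. In 17 of them (45.9%, against 5.44%) every aspirin library lay below every control. The median was -0.83, and -0.69 without Aspirin replicate 1, when 15 were lower at p under 0.05. Without TMM scaling, the summed level was 767, 830 and 534 FPKM in the controls and 666, 579 and 264 FPKM with aspirin. These sums overlapped through Control replicate 3. On TMM-scaled CPM the median marker, relative to the control mean, did not overlap. It stood at 0.01, 0.3 and -0.26 in the controls and -0.95, -0.73 and -0.61 with aspirin on the log2 scale. Cdh5, the cadherin of endothelial junctions, read 163, 203 and 104 CPM in the controls and 34.8, 53 and 78.9 CPM with aspirin (-1.49 ± 0.37, DESeq2 adjusted p = 0.0239). Ptprb, the phosphatase that restrains Tie2, read 76.5, 111 and 63.5 CPM in the controls and 29.8, 33.2 and 44.5 CPM with aspirin (-1.23 ± 0.26), and the orphan receptor Tie1 48.6, 62.7 and 36.8 CPM in the controls and 16.8, 20.7 and 27.6 CPM with aspirin (-1.19 ± 0.28). The groups were separate for Cdh5, Ptprb and Tie1. Esam, a junction adhesion molecule, had -0.89 ± 0.22 and Pecam1, encoding CD31, -0.89 ± 0.32. DESeq2 called Apold1, Ptprb, Tie1, Esam and Cdh5. The part that the number of endothelial cells had in these values was not tested.

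Vessel growth factors had a smaller shift, with 9 of 40 kept angiogenic genes lower (22.5%) and 2 higher (5.0%) at p under 0.05. The median was -0.42, or -0.31 without Aspirin replicate 1. Among receptors, Flt1, which binds VEGF, read 32.1, 49.3 and 40.0 CPM in the controls and 13.7, 19 and 28.4 CPM with aspirin (-0.99 ± 0.29), without overlap, and Kdr, the main VEGF receptor, 70.0, 69.1 and 24.6 CPM in the controls and 10.8, 12.9 and 36.3 CPM with aspirin (-1.45 ± 0.55), with overlap through Control replicate 3 and a fold change of -2.18 without Aspirin replicate 3. Among ligands, Fgf1 stood at 16.8, 19.7 and 18.3 CPM in the controls and 4.71, 8.21 and 11.6 CPM with aspirin (-1.16 ± 0.31). Vegfa itself, the hypoxia-induced ligand, read 119, 191 and 73.2 CPM in the controls and 26.2, 68.1 and 96.2 CPM with aspirin and overlapped (-1.01 ± 0.48). The 2 higher genes were Fgf7, a fibroblast product that acts on epithelium, at 6.94, 2.43 and 5.55 CPM in the controls and 22.0, 8.96 and 8.31 CPM with aspirin (1.40 ± 0.48), and the lymphatic growth factor Vegfd at 9.34, 14.5 and 11.9 CPM in the controls and 16.0, 31.7 and 15.7 CPM with aspirin (0.83 ± 0.33). Fgf7 was at 0.78 without Aspirin replicate 1 and Vegfd at 0.40 without replicate 2. Hes1, a Notch target, was lower at 11.9, 18.6 and 8.60 CPM in the controls and 3.26, 6.76 and 6.88 CPM with aspirin (-1.21 ± 0.38).

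Of 19 kept markers of smooth muscle and pericytes, the mural cells of vessels, 6 were lower at p under 0.05 (31.6%) with 0 higher, a median of -0.59 and -0.44 without Aspirin replicate 1, when 4 were lower. Their summed level overlapped, at 928, 884 and 1030 FPKM in the controls and 440, 863 and 1170 FPKM with aspirin, with Aspirin replicate 3 the highest of the 6. On TMM-scaled CPM the median marker, relative to the control mean, did not overlap. It stood at 0.14, 0.01 and -0.14 in the controls and -1.03, -0.47 and -0.34 with aspirin on the log2 scale. Myh11, smooth muscle myosin, read 46.2, 40.2 and 30.3 CPM in the controls and 15.5, 26.1 and 20.2 CPM with aspirin (-0.92 ± 0.25). Rgs5, a pericyte regulator of G protein signalling, read 320, 371 and 242 CPM in the controls and 155, 221 and 186 CPM with aspirin (-0.73 ± 0.28). Both separated the groups, whereas Acta2, smooth muscle actin, did not at 108, 76.3 and 110 CPM in the controls and 56.5, 57.8 and 113 CPM with aspirin. Of 19 kept fibrillar and basement membrane collagens 4 were lower (21.1%) and 1 higher (5.26%) at p under 0.05. Their median was -0.33 (-0.18 without Aspirin replicate 1). Among the lower ones, Col4a1 read 666, 761 and 433 CPM in the controls and 265, 355 and 331 CPM with aspirin (-0.97 ± 0.32) and Col15a1 256, 226 and 136 CPM in the controls and 47.5, 80.6 and 104 CPM with aspirin (-1.41 ± 0.36).

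All 27 kept adipocyte genes had negative fold changes, against 46.0% of all genes. Of these, 11 had p under 0.05 (40.7%, against 3.39% of all genes). In 14 every aspirin library lay below every control (51.9%, against 5.44%). The median was -1.36, and -1.0 without Aspirin replicate 1, when 6 had p under 0.05. Without Control replicate 2 the median was -0.80. Adipoq, the hormone adiponectin, read 220, 292 and 194 CPM in the controls and 52.7, 139 and 55.2 CPM with aspirin (-1.52 ± 0.57). Adrb3, the beta-adrenergic receptor of fat, read 20.8, 27.7 and 9.21 CPM in the controls and 0.705, 5.01 and 3.48 CPM with aspirin (-2.65 ± 0.77, DESeq2 adjusted p = 0.0445). Plin1, which coats lipid droplets, read 124, 213 and 100 CPM in the controls and 12.5, 52.5 and 51.2 CPM with aspirin (-1.91 ± 0.66). In these 3 genes all aspirin libraries were below the controls. The hormone-sensitive lipase Lipe and the glycerol channel Aqp7 had -1.88 ± 0.57 and -2.12 ± 0.64. The part of the fat taken with each muscle in these values was not tested.

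**Figure D4:**
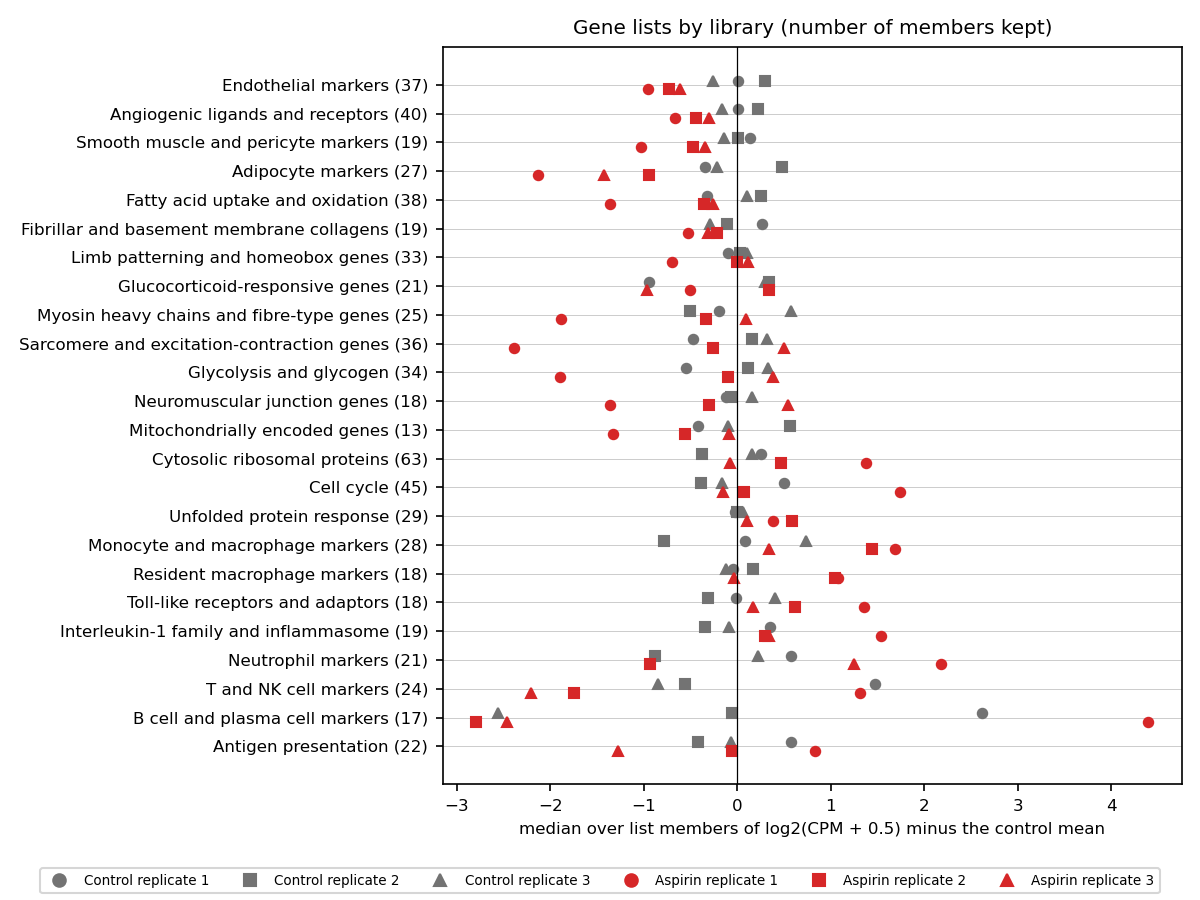
Median over the kept members of 24 gene lists of log2(CPM + 0.5) minus the control mean, for each control (grey) and aspirin (red) library. Endothelial, smooth muscle and adipocyte lists have all 3 red symbols below the grey ones, macrophage lists have Aspirin replicates 1 and 2 above them, and Aspirin replicate 1 lies far from the others in the muscle fibre, ribosomal, cell cycle and B cell lists.

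Genes of fatty acid uptake and oxidation came next. Of 38 kept genes 35 had negative fold changes and 7 had p under 0.05 (18.4%), with a median of -0.62 and -0.37 without Aspirin replicate 1, when 3 were lower. Acadl, the long-chain dehydrogenase of beta-oxidation, read 203, 263 and 262 CPM in the controls and 96.8, 164 and 159 CPM with aspirin (-0.80 ± 0.28), and the thiolase Acaa2 105, 153 and 138 CPM in the controls and 51.1, 81.4 and 94.0 CPM with aspirin (-0.81 ± 0.29). Both separated the groups. Hadh, another enzyme of the cycle, had -1.01 ± 0.40 (-0.67 without Aspirin replicate 1). Cpt1b, which admits fatty acids to the mitochondria of muscle, overlapped at 153, 234 and 224 CPM in the controls and 39.8, 136 and 227 CPM with aspirin. In glycolysis 2 of 34 genes were lower at p under 0.05 (5.88%), a share near the 3.39% of all genes. They were Ldhb, the lactate dehydrogenase subunit of oxidative fibres, at 68.4, 110 and 71.5 CPM in the controls and 16.1, 25.4 and 32.9 CPM with aspirin (-1.75 ± 0.47), and Pfkfb3, which makes an activator of phosphofructokinase, at 113, 145 and 175 CPM in the controls and 47.8, 35.2 and 64.9 CPM with aspirin (-1.55 ± 0.53).

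Among muscle fibre genes, 2 fast myosins and a slow binding protein had separate groups. Myh2, the myosin of type IIa fibres, read 3500, 1430 and 1640 CPM in the controls and 302, 501 and 942 CPM with aspirin (-1.91 ± 0.74). Myh1, the myosin of type IIx fibres, read 13200, 7000 and 12000 CPM in the controls and 1180, 3670 and 5730 CPM with aspirin (-1.60 ± 0.64), and Mybpc1, slow myosin-binding protein C, 2500, 1850 and 2390 CPM in the controls and 457, 894 and 1120 CPM with aspirin (-1.45 ± 0.49). All 3 had every aspirin library below every control, and fold changes of -1.62, -1.20 and -1.17 without Aspirin replicate 1. Myh4, the myosin of type IIb fibres, overlapped widely at 23400, 54400 and 62400 CPM in the controls and 2690, 42300 and 103000 CPM with aspirin, a fold change of 0.08 ± 1.07. Per kilobase Myh4 was above Myh1 in each library, at 4340, 7700 and 8480 FPKM in the controls and 651, 6960 and 13700 FPKM with aspirin, against 2320, 939 and 1540 and 271, 571 and 723 FPKM for Myh1. Of 25 fibre-type genes 3 were lower at p under 0.05 and 0 higher, a lower share above the 3.39% of all genes. The sarcomere list had 1 of 36 lower, Actn2 (2.78%, against 3.39% of all genes). Its median was -0.31, and 0.10 without Aspirin replicate 1. Ckm, muscle creatine kinase, overlapped at 9200, 17700 and 27200 CPM in the controls and 3100, 17300 and 26600 CPM with aspirin.

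Markers of regeneration and atrophy gave little separation. Myh3, embryonic myosin, read 258, 35.0 and 186 CPM in the controls and 42.4, 104 and 109 CPM with aspirin (-0.91 ± 0.89), and Myog, myogenin, 33.1, 19.2 and 38.4 CPM in the controls and 14.1, 39.8 and 27.4 CPM with aspirin (-0.16 ± 0.39). The groups overlapped in both, and also in the atrophy ligases Fbxo32 and Trim63. Fbxo32 had its highest and its lowest value within the aspirin group, at 111, 310 and 351 CPM in the controls and 124, 795 and 50.5 CPM with aspirin. Trim63 read 68.4, 319 and 294 CPM in the controls and 109, 599 and 129 CPM with aspirin. Of 24 satellite cell and myogenic genes 2 were lower at p under 0.05 (8.33%). They were Spry1, which keeps satellite cells quiescent, at 33.9, 37.8 and 29.1 CPM in the controls and 11.5, 20.0 and 25.4 CPM with aspirin (-0.83 ± 0.28), and Pax3, a myogenic paired-box factor, at 1.09, 1.27 and 1.54 CPM in the controls and 0.286, 0.187 and 0.143 CPM with aspirin (-2.63 ± 0.94). At the neuromuscular junction Agrn, the organiser agrin, was lower in every aspirin library at 38.4, 37.8 and 22.3 CPM in the controls and 15.5, 17.3 and 18.0 CPM with aspirin (-0.95 ± 0.27).

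Matrix genes were mixed. Col1a1, the main fibrillar collagen, stood at 2370, 1580 and 1360 CPM in the controls and 1540, 1870 and 1550 CPM with aspirin and overlapped (-0.10 ± 0.38). Thbs2, an inhibitor of vessel growth in the matrix, was higher at 56.9, 46.2 and 51.4 CPM in the controls and 98.3, 100 and 69.7 CPM with aspirin (0.80 ± 0.24), and Eln, elastin, lower at 254, 104 and 118 CPM in the controls and 73.1, 84.4 and 61.9 CPM with aspirin (-1.12 ± 0.35). Thbs2 and Eln separated the groups, and Eln was at -0.60 without Control replicate 1. Of the proteases, stromelysin Mmp3 read 55.9, 30.6 and 21.3 CPM in the controls and 282, 62.7 and 73.2 CPM with aspirin (1.95 ± 0.64) and collagenase Mmp13 0.554, 0 and 0.930 CPM in the controls and 13.4, 1.01 and 8.85 CPM with aspirin (3.98 ± 1.62), with no count in Control replicate 2. Mmp3 and Mmp13 were above the controls in each aspirin library, most in replicate 1, without which Mmp3 was at 0.90. Timp3, a matrix-bound inhibitor, was lower at 160, 245 and 218 CPM in the controls and 82.4, 110 and 146 CPM with aspirin (-0.88 ± 0.31). Ltbp4, which holds latent TGF-beta in elastic fibres, was lower at 136, 132 and 87.1 CPM in the controls and 31.0, 58.8 and 42.8 CPM with aspirin (-1.42 ± 0.29, DESeq2 adjusted p = 0.00184). Inhba, the activin A subunit, was higher at 0.960, 0.290 and 0.872 CPM in the controls and 4.44, 1.19 and 3.14 CPM with aspirin (2.04 ± 0.75). Ltbp4 and Inhba did not overlap between groups.

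Some stress and early response genes separated the groups. Nr4a1, an orphan nuclear receptor and immediate early gene, read 135, 344 and 191 CPM in the controls and 40.3, 73.6 and 89.0 CPM with aspirin (-1.72 ± 0.45, DESeq2 adjusted p = 0.0329). It was the 1 immediate early gene of 33 with p under 0.05 (3.03%), a share near the 3.39% of all genes that were lower. Hilpda, a hypoxia-induced lipid droplet protein, was higher at 2.29, 2.99 and 2.06 CPM in the controls and 11.2, 8.03 and 3.83 CPM with aspirin (1.65 ± 0.43, DESeq2 adjusted p = 0.0454). The groups were separate for both. Of 29 genes of the unfolded protein response 8 were higher at p under 0.05 (27.6%) and 0 lower. Hspa5, the chaperone BiP, read 186, 167 and 214 CPM in the controls and 372, 481 and 245 CPM with aspirin (0.95 ± 0.35), and Manf, a secreted stress protein, 33.5, 16.7 and 28.7 CPM in the controls and 108, 71.8 and 30.0 CPM with aspirin (1.41 ± 0.44). Hspa5 separated the groups and Manf overlapped through replicate 3. The list median was 0.42, and 0.29 without Aspirin replicate 1.

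Ribosomal and cell cycle genes were highest in Aspirin replicate 1. All 63 ribosomal protein genes had positive fold changes, against 54.0% of all genes. At p under 0.05, 3 of them were higher (4.76%), a share near the 3.09% of all genes. Their median of 0.64 became 0.19 without that library. Relative to control, the list stood at 1.38, 0.47 and -0.08 in the aspirin libraries on the log2 scale. Many of these genes have processed copies with which reads can be shared. For the cell cycle the values were 1.74, 0.07 and -0.15, the median 0.81 and, without replicate 1, -0.17. Mki67, the proliferation marker, read 41.4, 16.9 and 14.9 CPM in the controls and 254, 20.6 and 21.5 CPM with aspirin, high in Aspirin replicate 1 alone.

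**Figure D5:**
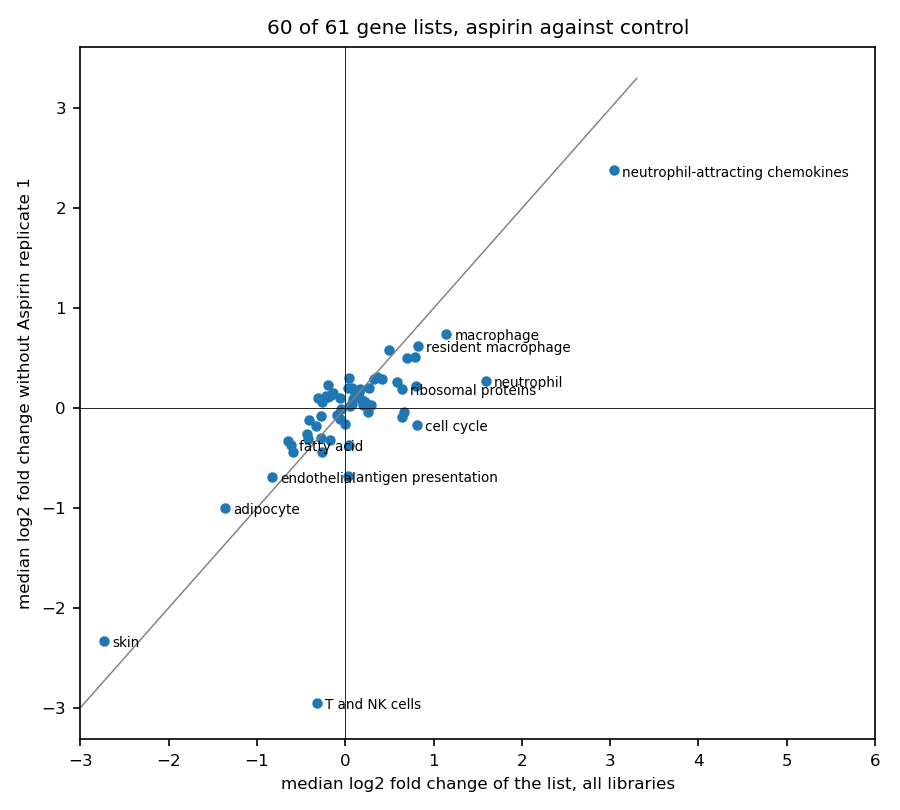
Median log2 fold change of each list with all libraries (horizontal axis) and without Aspirin replicate 1 (vertical axis), for 60 of the 61 lists, with B cell and plasma cell markers outside the frame. The grey line marks equal values. Adipocyte, endothelial, macrophage and neutrophil-attracting chemokine lists keep their side of 0, while cell cycle, sarcomere and neutrophil lists lie nearer 0 or across it without the library.

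In the libraries from mice given the hydrogel with aspirin, several of these genes stood elsewhere. Their libraries shared the spread estimate, and the test between them and aspirin alone uses the same aspirin libraries, so it is no separate evidence on aspirin. Between aspirin with hydrogel and aspirin alone, edgeR left 0 genes under an adjusted p of 0.05 (0.0%) and 1996 under an unadjusted p of 0.05 (10.9%). Arg1 read 0.387, 0.151 and 0.0667 CPM in the hydrogel libraries, below each aspirin library, a difference of -6.39 ± 0.98 from aspirin alone (edgeR adjusted p = 0.453). Hmox1 read 27.9, 31.8 and 20.1 CPM (-1.74 ± 0.29) and Lox 22.5, 31.5 and 20.7 CPM (-2.05 ± 0.33), both below every aspirin library. Irx5 read 3.02, 3.56 and 1.30 CPM (1.87 ± 0.44), Atp1b1 116, 106 and 84.1 CPM (1.41 ± 0.32) and Dach1 5.0, 3.87 and 4.57 CPM (1.37 ± 0.31), all above every aspirin library. Cxcl5 read 0.145, 0.121 and 0.167 CPM and Il1b 0.967, 0.845 and 0.233 CPM with the hydrogel. Apold1 read 4.28, 9.06 and 5.57 CPM, overlapping aspirin alone (0.35 ± 0.34).

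Across genes the 3 aspirin libraries were unlike each other. Of 494 genes averaging at least 1 CPM that were higher at p under 0.05, 325 had all 3 aspirin libraries above the controls. In 110 of them only Aspirin replicate 3 lay within the control range, in 40 only replicate 2 and in 7 only replicate 1. Of the 529 lower genes 435 were separate in all libraries. Both sets were selected by p in this contrast, which favours separate groups, so these counts describe the choice. Over all 18259 kept genes the shares were alike, with 5.54% separate above the controls and 5.44% below them. Of the 101 DESeq2 calls, 93 had groups that did not overlap, and 100 had an unadjusted edgeR p under 0.05.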

How the data were processed

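The authors deposited a table of raw counts per Ensembl gene and a table of FPKM for the same 9 RNA-seq libraries, which per the labels' protocols were made from RNA of leg muscle. The genome build is mm10 per the submitters' processing notes, while the sources used here name no aligner, counter or strand setting. FPKM, as deposited by the authors, served to compare levels between genes and, summed over markers or lists, between libraries, without TMM scaling. It was not used in any test. In 10432 genes with enough counts, 99.2% of its values lay within 1% of a rescaling of the counts.

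Counts were tested with edgeR 4.0.16 (quasi-likelihood, robust, TMM, R 4.3.3) after filterByExpr at a minimum count of 10 and a total of 15. All 9 libraries shared the spread, with group as the only term. The common biological coefficient of variation was 0.503. DESeq2 1.42.0, limma-voom (limma 3.58.1), other scalings and filters, and each library left out were tried as alternatives. Every pair of libraries differed beyond counting noise (chi-square over its degrees of freedom at least 130). The script was tested on simulated data.

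Replicate numbers come from the titles. Deviations from the group means correlated at 0.626, 0.147 and 0.244 for same-numbered control and aspirin libraries. Differently numbered libraries reached 0.416 (Control replicate 3, Aspirin replicate 2) and 0.275 (Control replicate 2, Aspirin replicate 3). A pairing by number is therefore not established, and the tests reported above ignore it. The replicate numbers entered as a block only in an alternative fit.

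Named genes were the 12 of smallest unadjusted p and the 6 of widest gap in each direction, the 6 of smallest p without Aspirin replicate 1, up to 4 of smallest p per list, a set of anchor genes and list members for their roles. Saa3, Slc13a3 and others so marked were picked after their values were seen, and a few genes that met the rule are not reported here. Members and lists were chosen with earlier results of these data known. Gene positions are from GENCODE vM21 on GRCm38.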

Additional observations from a re-analysis of the deposited data

How the results depend on the processing

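edgeR called 0 genes at an adjusted p under 0.05 under library size scaling, without the filter, with the 6 libraries alone, with the replicate block and with each library left out, and limma-voom called 0 too, while DESeq2 called 101; the cause was not tested. At an unadjusted p under 0.05, the count of 1183 ran from 605 without Control replicate 2 to 2733 without Aspirin replicate 3, and with the replicate numbers as a block it was 1250. Library size alone gave 543 higher and 348 lower genes, and moved the median of all genes from 0.05 to 0.27.

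Some named genes changed sign, and that of Mki67 rested on Aspirin replicate 1. With library size alone Col1a1 was at 0.08, Igf1 at 0.22 and Usp22 at 0.15. With limma-voom Fbxo32 was at -0.51 and Myh4 at -0.83, and with the replicate block at -0.18 and -0.52. With 1 library left out at a time, Ckm ran from -0.83 to 0.28, Col1a1 from -0.25 to 0.17, Fbxo32 from -1.57 to 0.83, Igf1 from -0.19 to 0.18, Mki67 from -0.23 to 2.63, Myh4 from -1.06 to 0.63, Myog from -0.55 to 0.14, Nos2 from -0.79 to 0.29, Tbxa2r from -1.09 to 1.16 and Trim63 from -0.94 to 0.68. The block changed no call at an adjusted p. Levels near 3 counts, as in Ptger1 and Mybphl with aspirin, are limited by depth.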

Other observations

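Lymphocyte genes differed more among the aspirin libraries than between the groups. T and NK cell markers summed to 215, 44.2 and 27.7 FPKM in the controls and 308, 14.3 and 4.93 FPKM with aspirin, replicate 1 being the highest of the 6 and replicates 2 and 3 the lowest. Of 24 kept markers 0 were higher and 0 lower at an unadjusted edgeR p under 0.05. Of the same markers 12 were lower without Aspirin replicate 1, and the median went from -0.32 to -2.95. For the 17 kept B cell and plasma cell markers 1 was higher and 0 lower with all libraries, against 11 lower without that library, and the median went from 1.41 to -7.40. With Control replicate 1 left out instead, the median was 0.94 for T and NK cell markers and 3.82 for B cell and plasma cell markers. The sign of these medians therefore depended on which library was left out. Antigen presentation genes, which load peptides on MHC molecules, summed to 2080, 983 and 1310 FPKM in the controls and 3550, 1310 and 465 FPKM with aspirin, with the same order among the aspirin libraries. Their median fold change was 0.03, and -0.68 without Aspirin replicate 1. Red cell and platelet genes, which track the blood left in a muscle, summed to 4060, 426 and 6740 and 6860, 5710 and 498 FPKM and overlapped widely.

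Skin markers stood apart in a control. They summed to 120, 5.73 and 7.15 FPKM in the controls and 19.8, 4.90 and 7.60 FPKM with aspirin, so Control replicate 1 was the highest of the 6. Only 7 of 15 passed the filter. Dsp, the desmosomal plaque protein desmoplakin, read 33.4, 0.803 and 3.31 CPM in the controls and 0.229, 0.117 and 0.457 CPM with aspirin, separate in all libraries (-5.55 ± 1.57, DESeq2 adjusted p = 0.00585). Krt10, a keratin of upper epidermis, read 59.9, 1.21 and 1.60 CPM and 0.934, 0.866 and 0.771 CPM. Dsp and Krt10 were both far above the other controls in Control replicate 1, and without it their fold changes were -2.94 and -0.71.

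Among genes outside the groups above, Abca1, Pdpn and Dnaja1 also separated aspirin from control libraries. Abca1, the pump that exports cholesterol, read 102, 133 and 83.5 CPM in the controls and 211, 166 and 162 CPM with aspirin (0.76 ± 0.29). Pdpn, podoplanin of lymphatic vessels and activated fibroblasts, was higher at 17.1, 10.6 and 24.0 CPM in the controls and 45.2, 27.5 and 32.3 CPM with aspirin (1.02 ± 0.32), while Flt4, the lymphatic VEGF receptor, had a fold change of -1.01 ± 0.32. The clock gene Per1 read 49.2, 237 and 99.7 CPM in the controls and 53.4, 61.8 and 20.0 CPM with aspirin (-1.51 ± 0.61, and -0.73 without Control replicate 2) and overlapped. Among chaperones the co-chaperone Dnaja1 read 61.9, 57.3 and 59.0 CPM in the controls and 120, 134 and 65.0 CPM with aspirin (0.84 ± 0.28), above the controls in each aspirin library.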
